A study of Mus musculus with 2 samples.

Results

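The CXC chemokines described here are *Cxcl1*, *Cxcl2*, *Cxcl9*, *Cxcl10*, *Cxcl12*, *Cxcl13* and *Cxcl16*, 7 of the 12 CXC ligand genes among the 16383 gene columns analysed. They were listed by name, but with earlier results of these data known. Liver nonparenchymal cells (NPCs, the cells of the liver other than hepatocytes) came from male mice of the C57BL/6 strain, aged 8 weeks when the diets began, and were profiled by single-cell RNA sequencing on the BD Rhapsody platform. The NASH library came from mice fed a methionine- and choline-deficient (MCD) diet for 6 weeks, a diet that induces nonalcoholic steatohepatitis, and the control library came from mice fed a standard low-fat diet for the same time. Cells of 3 mice were pooled for each library, so that each diet had 1 library and the spread between mice was not measured. No test between the diets was therefore possible, and every interval below is a 95% interval for counting error only. All 7 genes were measured in 7919 cells with at least 500 UMIs and 200 genes, 3710 from the NASH library and 4209 from the control library.

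Chemokines are small secreted proteins that guide leukocytes along concentration gradients through receptors on the leukocyte surface. *Cxcl1* and *Cxcl2* attract neutrophils through Cxcr2. *Cxcl9* and *Cxcl10* are classic targets of interferon-gamma and attract T cells and NK cells through Cxcr3. *Cxcl12* holds leukocytes and progenitors through Cxcr4, and Ackr3 takes it up as a scavenging receptor. *Cxcl13* attracts B cells through Cxcr5 and is known for organising B cell follicles. *Cxcl16* is made as a transmembrane protein, is shed by Adam10, and binds Cxcr6, the receptor of liver-resident T cells and NKT cells.

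In the GENCODE annotation of GRCm38, 5 of the 7 genes lay on chromosome 5. *Cxcl1* (ENSMUSG00000029380, chr5:90891241-90893115, plus strand) and *Cxcl2* (ENSMUSG00000058427, chr5:90903871-90905938, plus strand) were 10756 bp apart. *Cxcl9* (ENSMUSG00000029417, chr5:92321347-92328079, minus strand) and *Cxcl10* (ENSMUSG00000034855, chr5:92346638-92348889, minus strand) formed a second pair, 18559 bp apart. *Cxcl13* (ENSMUSG00000023078) lay at chr5:95956951-95961068 on the plus strand. The remaining members were *Cxcl12* (ENSMUSG00000061353) at chr6:117168535-117181367 on the plus strand and *Cxcl16* (ENSMUSG00000018920) at chr11:70453983-70459984 on the minus strand.

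The promoters of both neighbour pairs are shown because the pairs differed in the cells that held them. Each window runs from 250 bases before to 50 bases after the gene start (RefSeq, GRCm38.p6), and 6 of the 7 members had such a window. Capitals mark matches on either strand to GGGANNTNCC, the letters of an NF-kB site, or to GAAANNGAAA, the letters of an interferon response element.

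*Cxcl1*, chr5:90890995-90891294, plus strand: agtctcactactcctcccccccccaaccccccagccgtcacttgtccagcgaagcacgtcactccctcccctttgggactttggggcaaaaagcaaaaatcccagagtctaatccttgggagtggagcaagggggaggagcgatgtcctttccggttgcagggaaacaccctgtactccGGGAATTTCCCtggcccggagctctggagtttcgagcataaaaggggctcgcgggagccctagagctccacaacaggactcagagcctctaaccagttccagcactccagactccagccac

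*Cxcl2*, chr5:90903649-90903948, plus strand: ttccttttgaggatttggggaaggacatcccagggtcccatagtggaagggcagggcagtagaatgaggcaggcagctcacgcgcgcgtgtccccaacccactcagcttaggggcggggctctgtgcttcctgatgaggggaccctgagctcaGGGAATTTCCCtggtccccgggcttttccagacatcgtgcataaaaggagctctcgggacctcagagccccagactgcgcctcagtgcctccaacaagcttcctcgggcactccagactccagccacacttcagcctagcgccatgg

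*Cxcl9*, chr5:92328030-92328329, minus strand: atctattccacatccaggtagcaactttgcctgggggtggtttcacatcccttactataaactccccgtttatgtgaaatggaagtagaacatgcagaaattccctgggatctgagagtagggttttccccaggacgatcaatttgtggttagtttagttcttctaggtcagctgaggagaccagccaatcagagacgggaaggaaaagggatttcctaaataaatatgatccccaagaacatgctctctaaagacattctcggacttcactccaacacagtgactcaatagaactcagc

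*Cxcl10*, chr5:92348840-92349139, minus strand: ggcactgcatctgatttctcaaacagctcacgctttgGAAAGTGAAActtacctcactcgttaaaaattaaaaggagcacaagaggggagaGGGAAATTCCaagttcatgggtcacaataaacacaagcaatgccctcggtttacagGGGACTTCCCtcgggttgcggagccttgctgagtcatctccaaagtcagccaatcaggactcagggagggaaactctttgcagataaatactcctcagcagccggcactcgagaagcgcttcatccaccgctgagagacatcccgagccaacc

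The same 10 letters, GGGAATTTCC, lay 71 bases upstream of the *Cxcl1* start and 97 bases upstream of the *Cxcl2* start, each overlapped by a match on the other strand that was shifted by 1 base. *Cxcl10* held NF-kB letters at 159 and 103 bases upstream and the interferon letters GAAAGTGAAA at 213 bases upstream. No match to either pattern was in the windows of *Cxcl9*, *Cxcl12* or *Cxcl13*, and TTCNNNGAA, the letters of an interferon-gamma activated site, were in none of the 6 windows. Of 32851 promoter windows of this length, 4.01% held the NF-kB letters, 3.44% the interferon response letters and 8.30% the TTCNNNGAA letters. These are matches of letters only.

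The kept cells held 9249745 UMIs in the NASH library and 11399278 UMIs in the control library, with a median of 1654 and 1683 UMIs per cell. Of the cell labels, 21 occurred in both libraries. The NASH table carried no gene names, and its columns were read in the order of the control header. Around the CXC columns, profiles over 16 clusters of 41 columns had a median correlation of 0.70 between the libraries in this order, 0.26 with the NASH table shifted by -1 column and 0.09 with a shift of 1 column. In the order used, 32 of the 41 columns had a correlation over 0.5 and the lowest was -0.12, so the gene names of the NASH values are likely but not certain. Clustering without the CXC ligand genes gave 21 clusters. They were named from marker genes as LSEC-like (liver sinusoidal endothelial cells), VEC-like (vascular endothelial cells), Kupffer cell-like, monocyte or macrophage-like, dendritic cell-like, neutrophil-like, stellate cell or fibroblast-like and lymphocyte classes. Of the clusters whose markers gave no name, the *Acod1*-led cluster, called by its leading gene, held 3 neutrophil markers among its 50 leading genes and none among the first 10.

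Levels are summed UMIs per 1000000 UMIs of the class (CPM). In the NASH library *Cxcl9* and *Cxcl2* were the members with the most UMIs (3322 and 3239), followed by *Cxcl16* (2871), *Cxcl10* (1340), *Cxcl12* (640), *Cxcl13* (600) and *Cxcl1* (107). In the control library the order was *Cxcl2* (4928), *Cxcl9* (2441), *Cxcl16* (2433), *Cxcl13* (1626), *Cxcl10* (1427), *Cxcl12* (688) and *Cxcl1* (54). Over all kept cells *Cxcl1* and *Cxcl9* were past 1.5 times higher in the NASH library, *Cxcl13* was past 1.5 times lower, and the other 4 lay between. These 3 of 7 members stand beside 15.5% of the 8857 genes with at least 50 UMIs that were past 1.5 times in either direction.

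**Figure D1:**
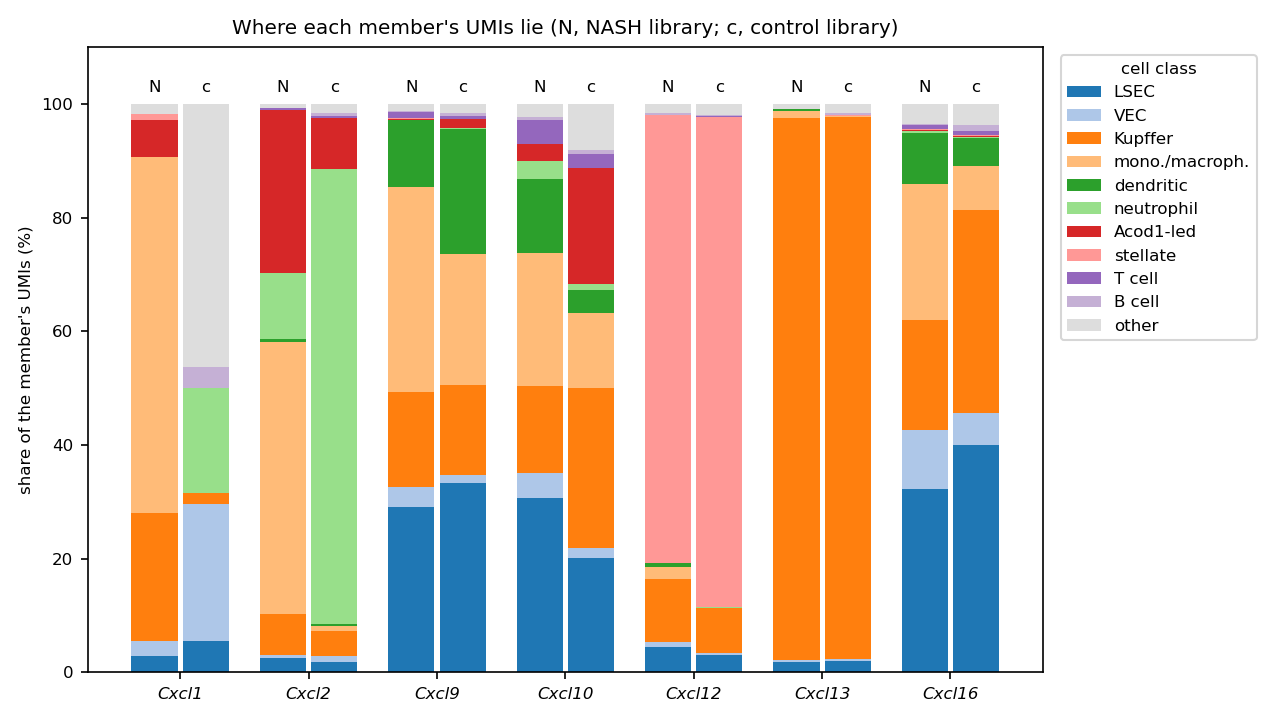
Share of each member's UMIs (y axis, percent) held by each cell class, NASH library (N) left of control library (c) for each gene. *Cxcl12* and *Cxcl13* lay mostly in 1 class in both libraries (78.8% and 86.2% in stellate cell or fibroblast-like cells, 95.3% and 95.3% in Kupffer cell-like cells), while the main holder of *Cxcl2* was the monocyte or macrophage-like class in the NASH library (47.7%) and the neutrophil-like class in the control library (80.1%).

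*Cxcl1* was rare and sat in few cells. The NASH library held 107 UMIs in 26 cells and the control library 54 UMIs in 15 cells, 11.6 CPM (9.48 to 14.0) and 4.74 CPM (3.56 to 6.18). In monocyte or macrophage-like cells there were 67 UMIs in 5 of 315 NASH cells and 0 UMIs in 104 control cells. The NASH level was 6.05-fold the level of 3 UMIs in the control cells, the floor used where none was found. The counting interval of the log2 ratio began at 2.26. However, 62 of the 67 UMIs came from 2 cells. Kupffer cell-like cells held 24 UMIs in 9 NASH cells and 1 UMI in 1 control cell. The control UMIs lay elsewhere, 24 in 5 cells of the *Clu*-led cluster, which carried markers of cholangiocytes and hepatocytes, and 13 in 3 VEC-like cells. No *Cxcl1* UMI was found in 331 NASH or 543 control T cell-like cells. All 5 *Cxcl1*-positive monocyte or macrophage-like cells of the NASH library also held *Cxcl2*, which was found in 28.4% of the other cells of that class. These 5 cells were deeper, with a median of 6857 UMIs against 4203 in the others, and the part of depth in this was not tested.

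*Cxcl2* had different main holders in the libraries, monocyte or macrophage-like cells with 47.7% of its NASH UMIs and neutrophil-like cells with 80.1% of its control UMIs. In neutrophil-like cells its level was 3718 CPM (3351 to 4113) in the NASH library and 5774 CPM (5595 to 5957) in the control library, a log2 ratio of -0.63 (-0.79 to -0.48). Cells with at least 1 UMI made up 50.7% of 71 NASH and 58.5% of 439 control neutrophil-like cells. The class's own 12 neutrophil markers summed to 42516 CPM in the NASH and 29945 CPM in the control cells, the 11 monocyte or macrophage markers to 10431 and 5636 CPM, and the 11 LSEC markers to 3352 and 997 CPM. Their part in the ratio was not tested. The *Acod1*-led cluster had a higher level still, 11153 CPM in 48 NASH cells and 17470 CPM in 14 control cells, with *Cxcl2* in 41 and 13 of them. *Acod1* makes itaconate in activated myeloid cells.

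In monocyte or macrophage-like cells the difference ran the other way. *Cxcl2* reached 1092 CPM (1038 to 1148) in the NASH library, against 115 CPM (83.4 to 154) in the control library, 9.41-fold higher, with a log2 ratio of 3.23 (2.82 to 3.72). It was found in 93 of 315 NASH cells and 13 of 104 control cells, and at an equal depth of 1000 UMIs per cell in 22.8% (18.2 to 27.9) and 8.08% (3.55 to 15.3) of cells. Leaving out the cell with the most UMIs in each library gave a log2 ratio of 3.53. The 12 neutrophil markers measured summed to 160 CPM in the NASH cells of this class and 585 CPM in the control cells, and *Ly6g*, which defines mouse neutrophils, had no UMI in either. The class's own 11 monocyte or macrophage markers summed to 26373 CPM in NASH and 40674 CPM in control cells (log2 ratio -0.63), and the 10 Kupffer cell markers to 1947 and 1279 CPM (0.61), so the class was not of 1 make-up in the libraries. The part of this in the chemokine ratios of the class was not tested. At clustering resolution 1.0 the class split, and *Cxcl2* was at 1395 CPM in NASH and 140 CPM in control cells of the *F13a1*-led monocyte cluster, and at 153 CPM in NASH and 54.0 CPM in control cells of the *Cx3cr1*-led macrophage cluster. Kupffer cell-like cells held 99.8 CPM in the NASH and 68.4 CPM in the control library (log2 ratio 0.54, 0.27 to 0.82), and 0.29 without the top cell of each library. The VEC-like ratio of -2.42 rested on 1 control cell with 55 of the 59 control UMIs, and was 0.72 without the top cell of each library. As a background, T cell-like cells held *Cxcl2* at 16.6 CPM in the NASH and 18.5 CPM in the control library.

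Ordered by level over both libraries, the *Acod1*-led cluster (12630 CPM) stood above the neutrophil-like cells (5509 CPM), which stood above the monocyte or macrophage-like cells (884 CPM), all outside each other's counting intervals, and in the same order within each library. The genes whose levels were most like *Cxcl2* over 22 class and library pairs were *Clec4d* (Pearson r = 0.94), *Gabarap* (0.89), *Hcar2* (0.89), *Csf3r* (0.88) and *C5ar1* (0.87). *Csf3r*, the G-CSF receptor, and *C5ar1*, the receptor of complement C5a, are known from myeloid cells. Pairs of 1 class share their marker genes, and these values describe a likeness only.

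**Figure D2:**
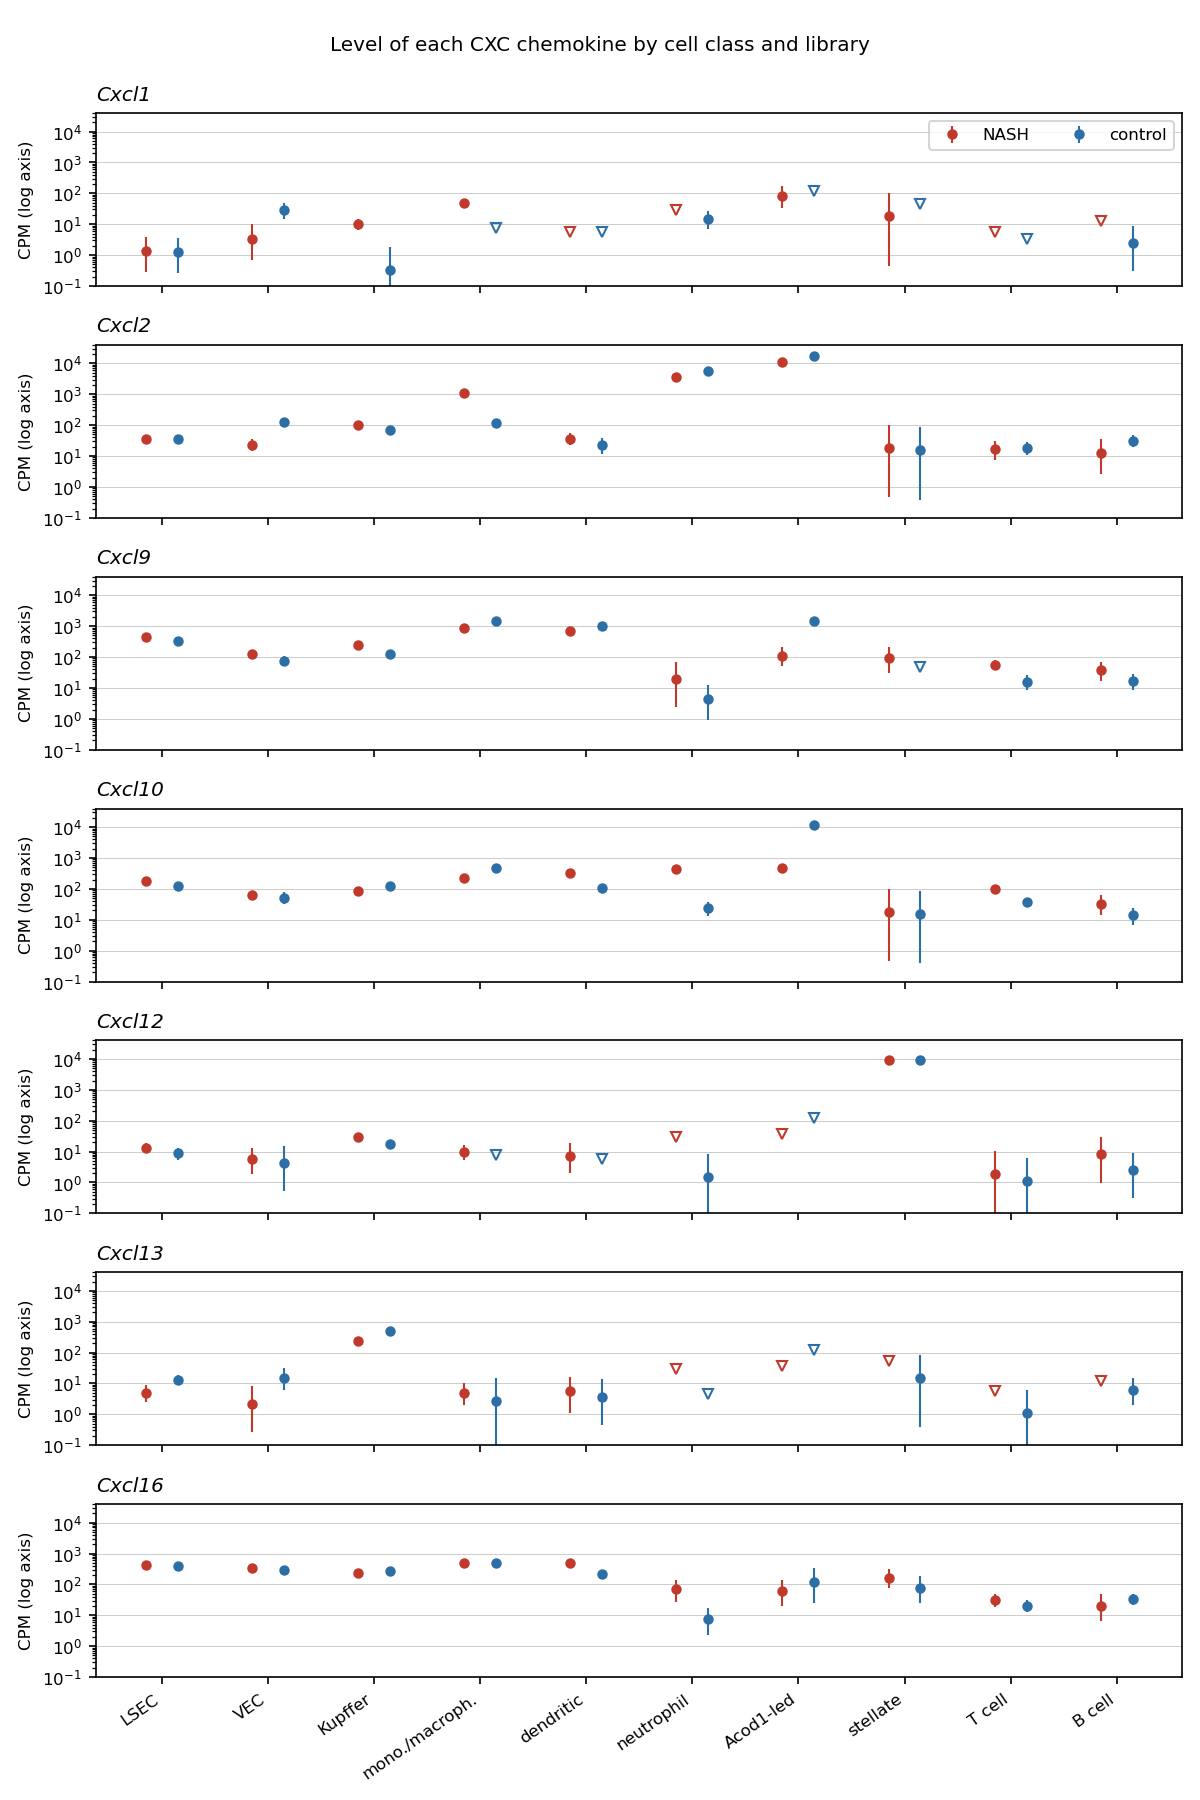
Level of each member (CPM, log axis) in 10 cell classes, NASH library left of control library in each class, with exact Poisson 95% intervals. Open triangles stand at the level of 3 UMIs where none was found. *Cxcl2* stood at 1092 CPM in NASH and 115 CPM in control monocyte or macrophage-like cells, and *Cxcl13* at 244 CPM in NASH and 493 CPM in control Kupffer cell-like cells.

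*Cxcl9* was spread over myeloid and endothelial cells. Its level over all kept cells was 359 CPM (347 to 372) in the NASH library and 214 CPM (206 to 223) in the control library, a log2 ratio of 0.75 (0.67 to 0.82). With the NASH class levels weighted by the control library's class make-up, the log2 ratio was 0.18. In the NASH library monocyte or macrophage-like cells (846 CPM) stood above dendritic cell-like (717 CPM), LSEC-like (434 CPM) and Kupffer cell-like cells (237 CPM), with intervals that did not overlap. In the control library these 4 classes had the same order (1467, 1000, 339 and 123 CPM), again without overlap. These are counting intervals, which leave out the spread between cells. The *Acod1*-led cluster held 9 UMIs in 3 of 48 NASH cells (108 CPM, 49.5 to 206) and 36 UMIs in 3 of 14 control cells (1420 CPM, 994 to 1965). NASH monocyte or macrophage-like cells were 315 and control ones 104.

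LSEC-like cells, which line the hepatic sinusoids, held 434 CPM (407 to 462) in the NASH library and 339 CPM (316 to 364) in the control library, a log2 ratio of 0.35 (0.22 to 0.49). *Cxcl9* was found in 386 of 1586 NASH and 315 of 1272 control LSEC-like cells. At equal depth the shares were 21.8% (19.3 to 24.4) and 18.9% (16.5 to 21.5), which overlap. In T cell-like cells at the same depth the shares were 2.45% and 0.868%. At clustering resolution 1.0 the sinusoidal cells formed 3 clusters. The *Kit*-led cluster held 453 CPM in NASH and 178 CPM in control cells, the *Aass*-led cluster 426 and 337 CPM, and an *Efnb2*-led cluster, which had 8 LSEC markers among its 50 leading genes but none among the first 10 and so kept no name, 421 and 505 CPM. *Efnb2* is known as a marker of arterial endothelium. The *Efnb2*-led cluster had 313 NASH and 489 control cells and the *Kit*-led cluster 698 and 482, so the make-up of the sinusoidal cells differed between the libraries as well.

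Within monocyte or macrophage-like cells *Cxcl9* was at 846 CPM (799 to 896) in the NASH library and 1467 CPM (1348 to 1593) in the control library, a log2 ratio of -0.79 (-0.94 to -0.65), beside the -0.63 of the class's own markers, while about the same share of cells carried it, 21.3% of NASH and 21.2% of control cells. The 10 cells with the most UMIs held 69.7% of the class's NASH UMIs and 92.7% of its control UMIs. In dendritic cell-like cells 25 of 113 NASH and 20 of 102 control cells carried *Cxcl9*, at 717 and 1000 CPM. Kupffer cell-like cells had 237 CPM in the NASH and 123 CPM in the control library, a log2 ratio of 0.94 (0.75 to 1.14), but 1 NASH cell held 285 of the 557 UMIs, and without the top cell of each library the log2 ratio was 0.30. Among VEC-like cells, which line larger vessels, the *Bmp4*-led cluster held 138 CPM in NASH and 39.5 CPM in control cells. The *Gja5*-led cluster held 77.6 CPM in NASH and 145 CPM in control cells. T cell-like cells, as a background, held *Cxcl9* at 57.0 CPM (31 UMIs) in the NASH and 15.2 CPM (14 UMIs) in the control library. Levels near these are not set apart from background, and its part in the VEC-like ratios was not tested. *Cxcl16* was the gene most like *Cxcl9* (r = 0.90), and *Gatm* (0.82), *Anxa5* (0.80) and *Mt1* (0.80) were among the 5 most like it.

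*Cxcl10*, the neighbour of *Cxcl9*, had a similar total in both libraries, 145 CPM (137 to 153) in the NASH and 125 CPM (119 to 132) in the control library. The log2 ratio was 0.21 (0.10 to 0.32). In LSEC-like cells it was at 185 CPM (167 to 204) in the NASH library and 120 CPM (107 to 135) in the control library, a log2 ratio of 0.62 (0.40 to 0.84), and of 0.50 without the top cell of each library. The share of LSEC-like cells with *Cxcl10* was 7.31% (116 of 1586) in the NASH library and 8.49% (108 of 1272) in the control library. At equal depth it was 6.15% (4.77 to 7.79) and 6.54% (5.08 to 8.28), so the share of positive cells was not higher in the NASH library. A few cells held many UMIs, as 10 NASH cells held 61.7% of the class's UMIs and 10 control cells 44.8%. The median was 1 UMI per positive cell in each LSEC-like cluster of either library.

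The highest level of *Cxcl10* was in the *Acod1*-led cluster of the control library, 290 UMIs in 9 of 14 cells (11436 CPM, 10158 to 12831), against 39 UMIs in 13 of 48 cells of the NASH library (469 CPM, 334 to 641). Monocyte or macrophage-like cells held 223 CPM in the NASH and 488 CPM in the control library, but 1 control cell had 106 of 187 UMIs. Without the top cell of each library the log2 ratio moved to -0.24, against -1.13 with all cells, and *Cxcl10* was found in 57 of 315 NASH and 11 of 104 control cells of the class. Kupffer cell-like cells held 87.4 CPM in the NASH and 128 CPM in the control library, a log2 ratio of -0.55 (-0.80 to -0.31). *Cxcl10* was in 56 of 477 NASH and 88 of 493 control cells of this class. Its NASH cells were shallower, with a median of 4566 UMIs against 6143, and the part of depth in these shares was not tested. In dendritic cell-like cells the level was 319 CPM in the NASH and 106 CPM in the control library, from 9 and 10 positive cells. The neutrophil-like ratio of 4.19 rested on 1 NASH cell with 40 of 44 UMIs. T cell-like cells, which served as a background, held 101 CPM in the NASH and 37.0 CPM in the control library, so levels near these are not set apart from background. In the NASH library 1 T cell-like cell held 23 of the 55 UMIs.

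*Cxcl9* and *Cxcl10* met in the same cells more often than in the rest of their class. Of LSEC-like cells with *Cxcl9*, 11.1% in the NASH library and 14.6% in the control library also had *Cxcl10*, against 6.08% and 6.48% of the LSEC-like cells without *Cxcl9*. The cells with *Cxcl9* were deeper, with a median of 1600 UMIs against 1148 in the NASH library and 2011 against 1482 in the control library, and the part of depth in this was not tested. In dendritic cell-like cells 7 of the 9 NASH cells and 8 of the 10 control cells with *Cxcl10* also had *Cxcl9*.

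Other genes of the interferon-gamma response were counted from a list of 18. In monocyte or macrophage-like cells 16 had at least 50 UMIs, 10 of them were past 1.5 times lower in the NASH library and 0 higher, with a median log2 ratio of -0.78 beside -0.06 over all genes of the class, of which 26.5% were past 1.5 times in either direction. The class's own markers were lower as well, as given above for *Cxcl2*. The 4 with the highest level were *Irf8* (413 CPM in NASH and 712 CPM in control cells), *Gbp2* (429 and 694 CPM), *Ifngr1* (422 and 629 CPM) and *Irf1* (340 and 585 CPM), 2 transcription factors of this response, a GTPase it induces and a chain of the interferon-gamma receptor. In LSEC-like cells 2 of 15 were lower and 0 higher (median 0.06), beside 10.4% of all genes past 1.5 times. In Kupffer cell-like cells 1 of 16 was lower and 0 higher (median -0.12), beside 8.75% of all genes. In VEC-like cells 5 of 15 were lower and 0 higher (median -0.17), beside 15.0% of all genes. *Cxcl9* was higher in the VEC-like class taken as a whole, but lower in its *Gja5*-led cluster. In T cell-like cells 7 of 15 were higher and 0 lower (median 0.45), beside 11.0% of genes past 1.5 times. In dendritic cell-like cells 2 of 14 were higher and 0 lower, beside 12.9% of all genes past 1.5 times. Of the NF-kB response list, 4 of 16 measured genes were past 1.5 times higher and 2 lower in monocyte or macrophage-like cells, beside the same 26.5% of all genes, so that the count lay not far above the background. *Il1rn*, the interleukin-1 receptor antagonist, was at 1379 CPM in NASH and 545 CPM in control cells, and *Nfkbia*, the NF-kB inhibitor, at 1156 and 728 CPM. *Cebpb* (1034 and 1127 CPM) and *Ccl3* (725 and 553 CPM) differed by less than 1.5 times. In Kupffer cell-like cells, where 8.75% of all genes were past 1.5 times, 5 of 15 NF-kB genes were higher and 0 lower, *Il1b* among them with 347 CPM in NASH and 192 CPM in control cells. Genes known to respond to tissue dissociation differed as well, with 3 of 14 past 1.5 times higher and 0 lower in Kupffer cell-like cells (8.75% of all genes), 2 of 14 higher and 4 lower in monocyte or macrophage-like cells (26.5% of all genes), and 3 of 13 higher and 1 lower in LSEC-like cells (10.4% of all genes). Their part in the chemokine values was not tested.

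**Figure D3:**
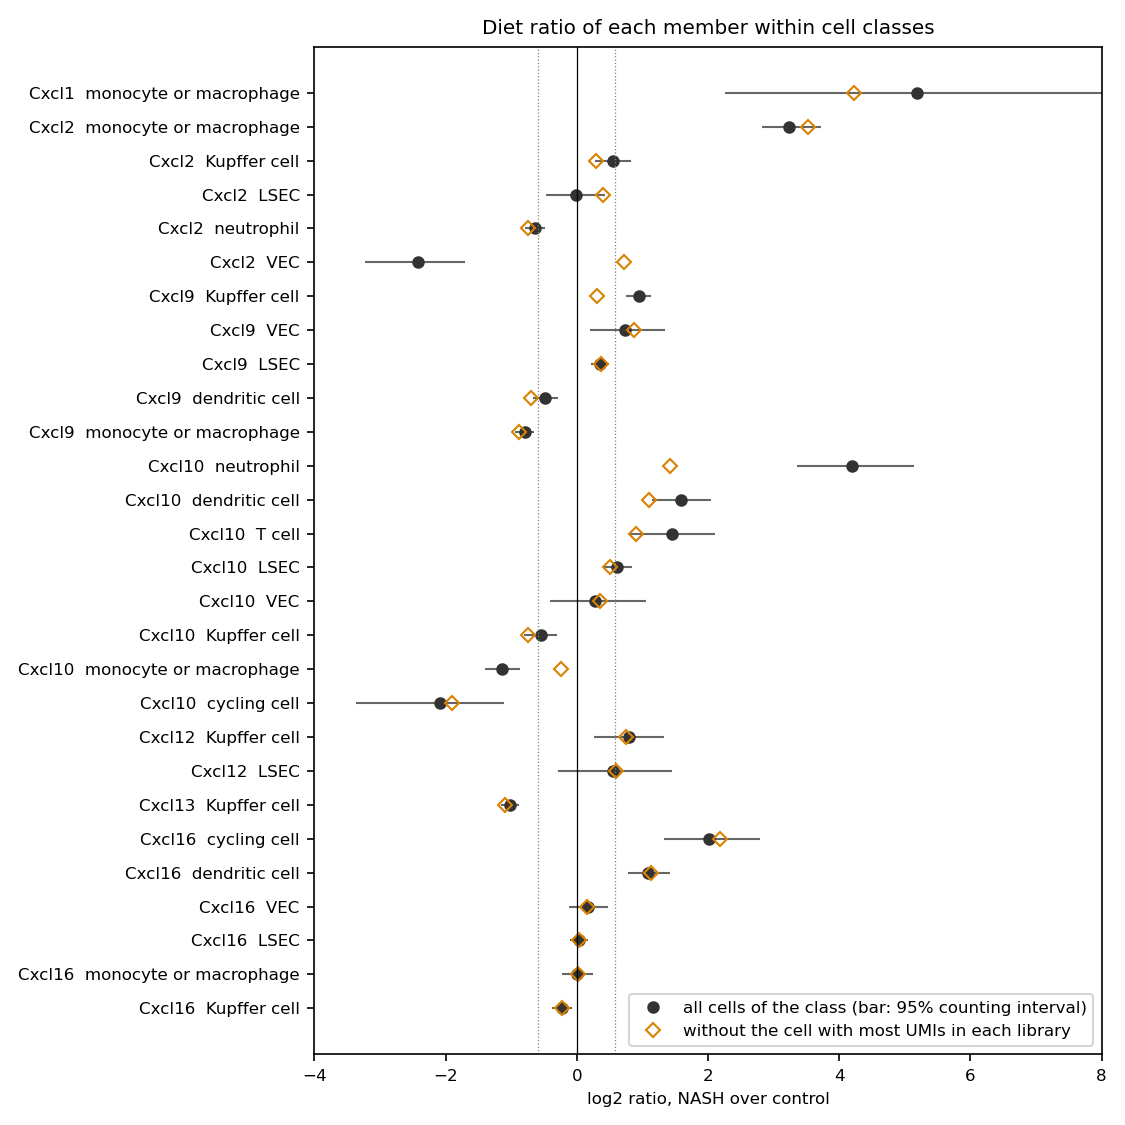
Log2 ratio of NASH over control (x axis) for each member with at least 50 UMIs in a class of at least 50 cells. Black points use all cells of the class with a 95% counting interval, orange diamonds leave out the cell with the most UMIs in each library, and dotted lines mark 1.5 times. The *Cxcl2* ratio in monocyte or macrophage-like cells was 3.23 and 3.53 without the top cells, while in VEC-like cells it was -2.42 and 0.72.

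*Cxcl12* lay mostly in the stellate cell or fibroblast-like cells, which support the sinusoids and store vitamin A. This class was small, 15 NASH and 19 control cells, below the minimum set for a ratio, and held 504 of 640 NASH UMIs and 593 of 688 control UMIs. The levels stood at 9167 CPM (8384 to 10004) in the NASH cells and 9178 CPM (8454 to 9948) in the control cells. All 15 NASH cells and 17 of the 19 control cells carried at least 1 UMI. Kupffer cell-like cells came next among classes with over 100 cells, with 30.3 CPM (23.6 to 38.2) in the NASH and 17.5 CPM (13.2 to 22.8) in the control library, a log2 ratio of 0.79 (0.26 to 1.33), and the share of cells with *Cxcl12* was 10.9% and 9.94%. LSEC-like cells held 29 UMIs in the NASH and 21 UMIs in the control library, with overlapping intervals of 8.71 to 18.7 CPM and 5.43 to 13.4 CPM. T cell-like cells had 1 UMI in each library. The stellate cell or fibroblast-like class was too small to enter the likeness ranking, in which *Adm* (r = 0.86) came first, followed by *Klkb1*, *Kif3c*, *Clec1b* and *Cdk1* (0.71 to 0.74).

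*Cxcl13* was a Kupffer cell chemokine in both libraries. Kupffer cell-like cells, the resident macrophages of the sinusoids, held 572 of 600 NASH UMIs and 1550 of 1626 control UMIs. The level was 244 CPM (224 to 265) in the NASH library and 493 CPM (469 to 518) in the control library, a log2 ratio of -1.01 (-1.16 to -0.88) and of -1.09 without the top cell of each library. *Cxcl13* was found in 145 of 477 NASH cells and 218 of 493 control cells of the class, 30.4% (26.3 to 34.7) and 44.2% (39.8 to 48.7). The NASH cells were shallower, with a median of 4566 UMIs against 6143, but at an equal depth of 1000 UMIs the shares were 14.8% (11.6 to 18.5) and 22.0% (18.3 to 26.1). Among T cell-like cells *Cxcl13* was found in 0 of 331 NASH cells, which allows a share of cells with a UMI of up to 0.906%, and in 1 of 543 control cells. Of the other named classes with over 100 cells in a library, the highest levels were 5.53 CPM in NASH dendritic cell-like cells and 19.5 CPM in control plasma cell-like cells.

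The genes most like *Cxcl13* were *Chp2* (r = 0.89), *Fcna* (0.86), *Cd163* (0.85), *Folr2* (0.85) and *Clec4f* (0.85), the last 4 of which mark Kupffer cells. Within Kupffer cell-like cells each of these differed by less than 1.5 times between the diets. *Clec4f* was at 7434 CPM in NASH and 7546 CPM in control cells, *Cd163* at 2892 and 2462 CPM, *Folr2* at 2359 and 2594 CPM, *Fcna* at 4448 and 5057 CPM, and *Chp2* at 402 and 476 CPM. All 10 Kupffer cell markers measured were present in both libraries and summed to 27949 CPM in NASH and 29406 CPM in control cells. The 11 monocyte or macrophage markers summed to 8001 and 8367 CPM, and the 12 neutrophil markers to 124 and 150 CPM. The 11 LSEC markers were higher in the NASH cells, at 2281 and 1531 CPM, as were the 12 VEC markers, at 231 and 115 CPM. Their part in the chemokine ratios of this class was not tested. The lymphotoxin pathway, known upstream of *Cxcl13* in lymphoid stroma, had 3 measured genes in these cells and none was past 1.5 times: *Ltbr*, the lymphotoxin receptor, was at 146 CPM in NASH and 144 CPM in control cells.

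**Figure D4:**
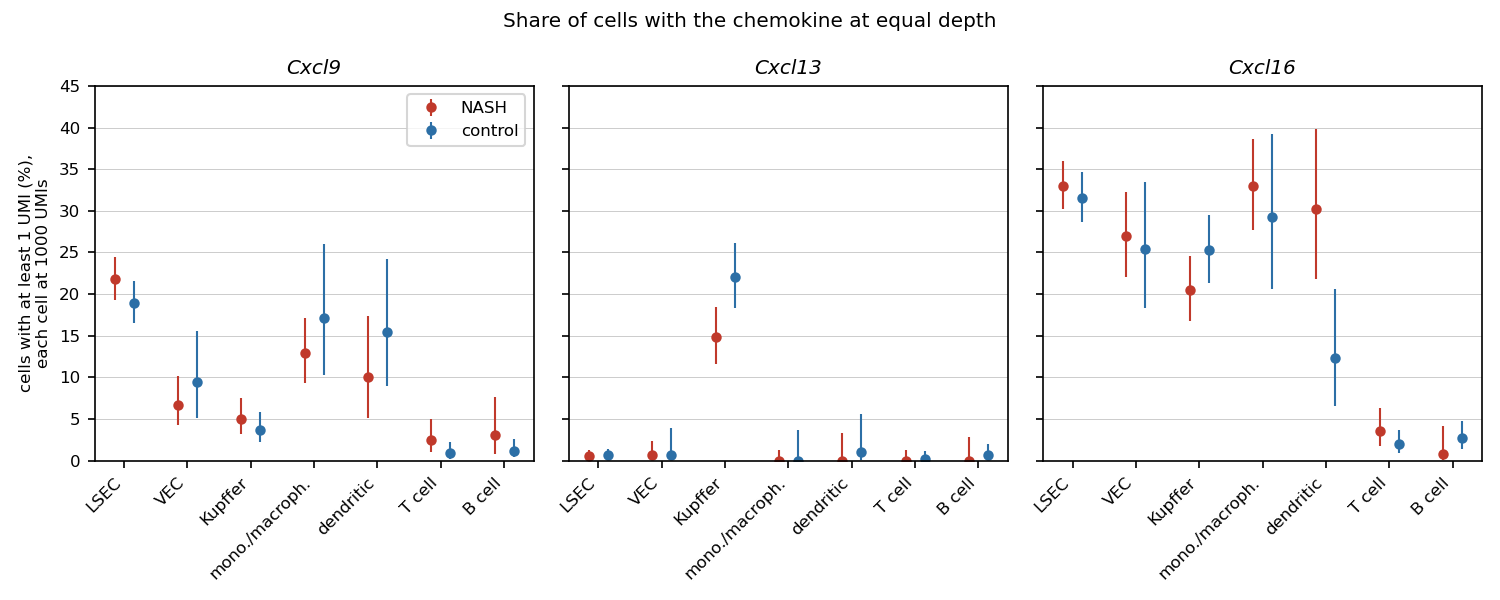
Share of cells with at least 1 UMI (y axis, percent, exact binomial 95% intervals) of *Cxcl9*, *Cxcl13* and *Cxcl16*, after 1000 UMIs were drawn from each cell of at least that depth, NASH library left of control library. *Cxcl13* was in 14.8% of NASH and 22.0% of control Kupffer cell-like cells, and *Cxcl16* in 30.3% of NASH and 12.4% of control dendritic cell-like cells.

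*Cxcl16* was the most widely found member, in 1420 of 3710 NASH cells and 1223 of 4209 control cells, and the least dependent on single cells, since its 10 top cells held 5.61% of the NASH and 4.48% of the control UMIs. Its level over all kept cells was 310 CPM (299 to 322) in the NASH and 213 CPM (205 to 222) in the control library, a log2 ratio of 0.54 (0.46 to 0.62). At the control library's class make-up the log2 ratio was 0.11. In the NASH library the order was monocyte or macrophage-like (484 CPM), dendritic cell-like (479 CPM), LSEC-like (416 CPM), VEC-like (329 CPM) and Kupffer cell-like cells (238 CPM), and the intervals of dendritic cell-like cells overlapped those of both neighbours. In the control library it was monocyte or macrophage-like (483 CPM), LSEC-like (407 CPM), VEC-like (292 CPM), Kupffer cell-like (277 CPM) and dendritic cell-like cells (225 CPM), where the intervals overlapped between neighbours except from LSEC-like to VEC-like cells.

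Within 3 of these classes, each taken as a whole, the libraries lay close together. LSEC-like cells held 416 CPM (390 to 444) in the NASH and 407 CPM (382 to 433) in the control library, a log2 ratio of 0.03 (-0.10 to 0.16). Monocyte or macrophage-like cells held 484 and 483 CPM, with an interval of the log2 ratio of -0.23 to 0.25, and VEC-like cells 329 and 292 CPM, with an interval of -0.12 to 0.48. The VEC-like clusters differed in opposite directions, however. The *Bmp4*-led cluster held 344 CPM (303 to 389) in NASH and 224 CPM (174 to 283) in control cells. The *Gja5*-led cluster held 259 CPM (185 to 352) in NASH and 423 CPM (328 to 537) in control cells. Kupffer cell-like cells were somewhat lower in the NASH library, at 238 CPM (219 to 258) against 277 CPM (259 to 296). Dendritic cell-like cells stood apart with 479 CPM (423 to 541) in the NASH and 225 CPM (187 to 269) in the control library, a log2 ratio of 1.09 (0.78 to 1.42). *Cxcl16* was in 72 of 113 NASH and 45 of 102 control dendritic cell-like cells, and at equal depth in 30.3% (21.8 to 39.8) and 12.4% (6.56 to 20.6). Their dendritic cell markers summed to 5443 CPM in NASH and 6508 CPM in control cells. The cycling cell-like class, which mixes lineages, held 263 CPM in 43 NASH and 64.4 CPM in 54 control cells. T cell-like cells had 31.3 CPM in the NASH and 20.7 CPM in the control library. *Adam10*, the sheddase of *Cxcl16*, was at 212 CPM in NASH and 239 CPM in control LSEC-like cells. The genes most like *Cxcl16* were *Cttnbp2nl* (r = 0.92), *Cxcl9* and *Anxa5* (0.90 each), *Mt1* and *F11r* (0.89 each).

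Set against all genes, the members were past 1.5 times in 1 of 5 measured cases in LSEC-like cells, where 10.4% of genes were, in 2 of 4 in VEC-like cells (15.0% of genes), in 3 of 6 in Kupffer cell-like cells (8.75% of genes), in 4 of 5 in monocyte or macrophage-like cells (26.5% of genes), in 2 of 2 in neutrophil-like cells (27.3% of genes) and in 2 of 3 in dendritic cell-like cells (12.9% of genes). The monocyte or macrophage-like class had 2 members higher (*Cxcl1* and *Cxcl2*) and 2 lower (*Cxcl9* and *Cxcl10*) in the NASH library. Its *Cxcl1* UMIs came mostly from 2 NASH cells. The dendritic cell-like members past 1.5 times were *Cxcl10* and *Cxcl16*, both higher. The *Cxcl9* ratio in Kupffer cell-like cells, the *Cxcl10* ratios in LSEC-like and monocyte or macrophage-like cells and the *Cxcl2* ratio in VEC-like cells were no longer past it, or changed direction, without the top cell of each library.

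The receptors lay in other cells than most of their ligands. *Cxcr2*, the receptor of *Cxcl1* and *Cxcl2*, was at 5606 CPM in NASH and 7087 CPM in control neutrophil-like cells. The neutrophil-like class of either library thus held both the ligand *Cxcl2* and its receptor. Over all kept cells *Cxcr2* was at 70.1 CPM in the NASH and 445 CPM in the control library, with 71 NASH and 439 control neutrophil-like cells. *Cxcr3*, the receptor of *Cxcl9* and *Cxcl10*, was at 438 CPM in NASH and 350 CPM in control T cell-like cells and at 360 and 268 CPM in NK cell or ILC1-like cells. *Cxcr6*, the receptor of *Cxcl16*, was at 1189 CPM in NASH and 1141 CPM in control T cell-like cells and at 848 and 669 CPM in NK cell or ILC1-like cells. *Cxcr5*, the receptor of *Cxcl13*, was at 329 CPM in NASH and 363 CPM in control B cell-like cells, which numbered 195 and 628. *Cxcr4*, the receptor of *Cxcl12*, was at 371 CPM in the NASH and 383 CPM in the control library over all kept cells (log2 ratio -0.05). It was at 3975 CPM in NASH and 2812 CPM in control neutrophil-like cells (0.50, 0.34 to 0.66), at 653 and 608 CPM in monocyte or macrophage-like cells (0.10, -0.10 to 0.32), at 2699 CPM in NASH and 1595 CPM in control B cell-like cells (log2 ratio 0.76, 0.62 to 0.90), at 616 and 251 CPM in T cell-like cells (1.29, 1.05 to 1.54) and at 618 and 295 CPM in dendritic cell-like cells (1.06, 0.79 to 1.35). *Ackr3*, the scavenger of *Cxcl12*, was at 58.2 CPM in NASH and 138 CPM in control VEC-like cells, and *Ackr1*, a chemokine-binding receptor of venules, at 40.8 and 86.1 CPM in LSEC-like cells and at 68.3 and 64.9 CPM in VEC-like cells.

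Of 8 other CXC ligands listed, 5 were among the genes analysed and 4 of them had at least 50 UMIs. *Pf4*, platelet factor 4, was highest in monocyte or macrophage-like cells among the named classes with over 100 cells, at 134 CPM in NASH and 138 CPM in control cells. *Cxcl14* was highest in the stellate cell or fibroblast-like cells (18 UMIs, 327 CPM, in 15 NASH cells and 8 UMIs, 124 CPM, in 19 control cells) and also lay in Kupffer cell-like cells (44.8 and 35.6 CPM) and monocyte or macrophage-like cells (57.2 and 54.8 CPM). *Ppbp*, a platelet chemokine, was found in LSEC-like cells at 23.8 CPM in the NASH and 25.9 CPM in the control library. *Cxcl3*, another Cxcr2 ligand, had 19 UMIs in the NASH library and 41 in the control library, 33 of the control UMIs in neutrophil-like cells.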

How the data were processed

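Liver NPCs of 3 pooled mice per diet were captured on BD Rhapsody, and the authors counted UMIs with the BD whole transcriptome pipeline on GRCm38. The deposited values are raw counts of UMIs per gene and cell, without normalization. The gene columns analysed run alphabetically to *Rad54l2*, so totals per cell cover part of each library, and the study's limit of 5% mitochondrial UMIs was not applied. Gene names for the NASH table, which has no header, were taken from the control table column by column. The kept cells held a median of 1654 UMIs (NASH) and 1683 UMIs (control), and exact Poisson or binomial intervals at 95% give the precision of that depth.

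The limits of 500 UMIs and 200 genes kept 3710 of 3893 NASH cells and 4209 of 4336 control cells. Seurat 5.3.0 in R 4.3.3 was used for log normalization to 10000 UMIs, 2000 variable genes without CXC ligands, scaling on total UMIs, 50 principal components and clustering at resolution 0.6. A cluster was named where at least 3 markers of a class were among its 50 leading genes (found in over 25% of its cells), at least 1 among the first 10, and no other class had more there. Doublets were kept. Scrublet (scanpy 1.11.5) marked 3 NASH and 52 control cells, too few in the NASH library for the caller to have worked there.

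UMIs were summed per class and library (CPM). Log2 ratios used 0.5 UMI added to each sum, with the interval from the exact binomial share of UMIs, for genes with at least 50 UMIs in classes of at least 50 cells and 20 in each library. The ratio function was tested on simulated counts. Past 1.5 times was a count by size, with no test. Shares of cells were also taken at 1000 UMIs per cell. Promoters came from RefSeq and gene positions from GENCODE M21.

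The named genes were the 7 members in every class, at most 4 genes with the highest level of each list per class, the 5 genes most like each member (Pearson, log2(CPM + 1), genes with at least 200 UMIs, pairs of at least 50 cells) and leading genes. *Il1b* in Kupffer cell-like cells was one of these 4. The members and lists were chosen with earlier results of these data known. *Cxcl1* had under 200 UMIs and no likeness ranking. One of the genes so named is not reported here.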

Additional observations from a re-analysis of the deposited data

Results flagged for a closer look

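These ratios of NASH over control lay in opposite directions in different cell classes, each with a counting interval clear of 0, and the difference between classes was not tested. With 1 library per diet, none can be set against the spread between mice. The log2 ratio of *Cxcl2* was 3.23 in monocyte or macrophage-like cells, -0.63 in neutrophil-like cells and -2.42 in VEC-like cells. Without the cell with the most UMIs in each library, an alternative chosen after seeing the data, these were 3.53, -0.74 and 0.72.

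The log2 ratio of *Cxcl9* was 0.94 in Kupffer cell-like cells (0.30 without the top cells) and 0.74 in VEC-like cells (0.87), and -0.79 in monocyte or macrophage-like cells (-0.88). Within the VEC-like class, *Cxcl9* was higher in NASH cells of the *Bmp4*-led cluster and lower in those of the *Gja5*-led cluster. The T cell-like background of *Cxcl9* was also higher in the NASH library, at 57.0 CPM against 15.2 CPM in the control library.

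The log2 ratio of *Cxcl10* was 0.62 in LSEC-like cells (0.50 without the top cells), 1.58 in dendritic cell-like cells (1.09), 4.19 in neutrophil-like cells (1.42) and 1.44 in T cell-like cells (0.90). The neutrophil-like value rested mostly on a single NASH cell, and the T cell-like cells served as a background for this gene. The log2 ratio of *Cxcl10* was -1.13 in monocyte or macrophage-like cells (-0.24) and -2.09 in cycling cell-like cells (-1.91), where it rested on 9 NASH and 50 control UMIs.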

How the results depend on the processing

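Of 178 values under an alternative, over all kept cells and in each member's leading class, 146 moved by less than their counting interval or 1.5 times in count, 32 moved further and 0 changed direction. Outside these, the log2 ratio of *Cxcl2* in VEC-like cells changed direction without the top cell of each library (0.72, against -2.42). There 1 control cell held 55 of the 59 control UMIs, so few were left. In LSEC-like cells it was 0.40 without the top cells, against -0.02 with an interval of -0.48 to 0.44. No paired analysis was possible because each diet had 1 library. With the NASH class levels weighted by the control make-up, the log2 ratio over all kept cells was 0.16 for *Cxcl1*, -0.39 for *Cxcl2*, 0.18 for *Cxcl9* and 0.11 for *Cxcl16*. The mean over cells of UMIs per 10000 gave -1.04 for *Cxcl2*, 0.43 for *Cxcl10*, 0.032 for *Cxcl12*, -0.87 for *Cxcl13* and 0.64 for *Cxcl16*.

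At resolution 1.0 the *Efnb2*-led cells lost the LSEC name. The log2 ratio of *Cxcl9* in the remaining LSEC-like cells was then 1.08, and these cells held 23.4% of NASH and 11.5% of control UMIs of *Cxcl9*, 17.0% and 8.76% of *Cxcl10*, and 25.3% and 23.2% of *Cxcl16*. Stellate cells had no class of their own there, so that *Cxcl12* has no value. Among cells with at least 1000 UMIs, NASH LSEC-like cells held 25.9% of *Cxcl9* and 28.2% of *Cxcl16*. Without the doublets marked by Scrublet, control neutrophil-like cells held 81.4% of *Cxcl2*.

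Thinning to 1000 UMIs put *Cxcl9* in 21.8% of NASH and 18.9% of control LSEC-like cells, *Cxcl10* in 6.54% of control LSEC-like cells, *Cxcl16* in 33.0% of NASH and 31.6% of control LSEC-like cells, and *Cxcl13* in 14.8% of NASH and 22.0% of control Kupffer cell-like cells.

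A minimum of 20 UMIs tested more genes, and those past 1.5 times were 1077 in LSEC-like cells (651 at the minimum of 50 UMIs), 988 in Kupffer cell-like cells (542), 1334 in neutrophil-like cells (583), 1914 in monocyte or macrophage-like cells (1182), 1316 in VEC-like cells (662) and 1112 in dendritic cell-like cells (449).

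Depth limits *Cxcl1*, with 107 NASH and 54 control UMIs. A few cells hold much of *Cxcl9* and *Cxcl10*, and counting intervals do not cover that spread or the spread between mice.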
